A study of Homo sapiens with 9 samples.

Results

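NF-kB is a family of dimeric transcription factors, and the 10 genes described here encode members of that family, the inhibitors that hold it in check and genes it is known to switch on. They were listed by symbol for their known roles, with earlier results of these data known, and comprise the subunit genes RELA, RELB, NFKB1 and NFKB2, the inhibitor and feedback genes NFKBIA, NFKBIE and TNFAIP3, and the target genes BIRC3, IER3 and ICAM1. All 10 were found among the 26475 gene symbols of the count table, and all 10 were among the 16417 genes that passed the filter on low counts. Their mRNA was measured by RNA-seq in A375, an established BRAF-mutant line of human melanoma, after 24 h with DMSO, with 5 µM TP-472 or with 10 µM TP-472, in 3 libraries per group. TP-472 is a chemical probe that blocks the bromodomains of BRD9 and BRD7, both subunits of SWI/SNF chromatin remodelling complexes. All groups were A375 cells kept in the same serum-containing medium, and the labels name no cytokine or other stimulus of NF-kB in any of them. The deposited series calls the libraries of a group biological replicates without saying how the cultures were set up, so a p-value here measures the spread between libraries of 1 cell line. The question was how the components and targets of this pathway stood at each dose.

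In resting cells, NF-kB dimers are held in the cytoplasm by IkB proteins. Signals from tumor necrosis factor, interleukin-1 or Toll-like receptors activate the IkB kinase complex, which marks IkB proteins for destruction and lets dimers of RELA and the p50 product of NFKB1 enter the nucleus. A slower, non-canonical route processes the NFKB2 product p100 to p52, which pairs with RELB. Many of the genes switched on encode brakes on the same pathway, among them the inhibitor IkBα (NFKBIA), its relative IkBε (NFKBIE) and the ubiquitin-editing enzyme A20 (TNFAIP3), and NF-kB also drives the genes of several of its own subunits. In melanoma, NF-kB activity is known for inflammatory cytokine production and survival signalling.

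Because the members include classic targets, the sequence before their start sites is shown for those whose RefSeq promoter (GRCh38.p14) was given, which was 7 of the 10. No promoter was given for RELB, NFKBIE and IER3. The 250 bases before each start were searched on both strands for the NF-kB consensus, a 10-letter pattern, and for the 9-letter form GGAAANNCC, which overlaps it in part and was chosen after the sequences had been seen. At least 1 start of 5 of the 7 genes held the consensus, against 11.8% of 27303 genes, and 6 of the 7 held the 9-letter form, against 6.7% of genes. Per window of this length, the shares were 9.96% and 5.48% of 35114 promoters. RELA held neither. A match describes letters only and does not show that a factor is bound. The whole window is shown for NFKBIA, whose 250 bases hold no annotated exon, at chr14:35404750-35404999 on the minus strand, with capitals for the matches, which lie 242 to 234 and 81 to 72 bases before the start.
NFKBIA: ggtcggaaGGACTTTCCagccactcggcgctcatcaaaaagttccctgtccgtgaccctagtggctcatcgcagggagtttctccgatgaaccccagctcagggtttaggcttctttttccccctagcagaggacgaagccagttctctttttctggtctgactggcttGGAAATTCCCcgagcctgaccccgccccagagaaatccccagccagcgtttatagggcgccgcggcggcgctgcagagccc

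For the other genes, 30 bases around a match are shown, again with the match in capitals, to let the sites be compared. They are all read from the plus strand, at chr4:102501300-102501329 for NFKB1, at chr6:137867188-137867217 for TNFAIP3, at chr10:102394462-102394491 and chr10:102395674-102395703 for the first and the last of the matches of NFKB2, at chr11:102317275-102317304 and chr11:102317339-102317368 for BIRC3, and at chr19:10270924-10270953 for ICAM1. TNFAIP3 carries a pair of matches within the same stretch. ICAM1 holds the 9-letter form alone, 186 to 178 bases before its start, and no consensus match. The windows before these RefSeq starts also hold bases that GENCODE annotates as exon of the same gene. All 250 bases are exon for ICAM1 and for the first match of NFKB2, and 71 for TNFAIP3. For NFKB1, BIRC3 and the last match of NFKB2 it is 30, 34 and 12. The stretches of ICAM1, TNFAIP3 and NFKB2 lie within the span of the gene given below.
NFKB1: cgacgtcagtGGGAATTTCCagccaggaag
TNFAIP3: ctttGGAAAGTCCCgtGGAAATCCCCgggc
NFKB2, first match: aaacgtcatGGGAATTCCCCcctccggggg
NFKB2, last match: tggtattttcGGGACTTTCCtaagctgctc
BIRC3, distal match: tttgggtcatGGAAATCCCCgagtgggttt
BIRC3, proximal match: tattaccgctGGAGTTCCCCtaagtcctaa
ICAM1: gctttagcttGGAAATTCCggagctgaagc

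The libraries held 42483091 to 51298130 expected counts, which are RSEM's estimates of the reads of each gene, and the member with the fewest counts, NFKBIE, had 674 to 1737 in a library. Levels are given below as CPM, the counts scaled to a fixed library size after TMM scaling. Replicate 1 at 10 µM stood apart from the other libraries. Over 12962 genes its median deviation from the mean of the other 2 libraries of its group was 0.361 on the log2 scale, against 0.0575 to 0.0613 in DMSO and 0.0785 to 0.0915 at 5 µM. Replicates 2 and 3 at 10 µM deviated by 0.2 and 0.211 from means that include replicate 1. Taken in pairs, the median difference was 0.364 and 0.372 between replicate 1 and the other 2, and 0.119 between replicates 2 and 3, beside 0.0678 to 0.0714 in DMSO and 0.0913 to 0.108 at 5 µM. Across genes the deviation of replicate 1 ran against transcript length (Spearman rho -0.62). The 10 members showed the same order. In that library NFKBIE was 0.76, IER3 0.58 and RELB 0.44 above the mean of the other 2 on the log2 scale, and TNFAIP3 was 0.41 and BIRC3 0.34 below it, with a rho of -0.87 between deviation and transcript length over the 10 members. Length here is that of the longest annotated coding transcript, which is 2.58, 1.35 and 2.29 kb for NFKBIE, IER3 and RELB, and 4.74 and 5.2 kb for TNFAIP3 and BIRC3. For each member, the difference from DMSO at 10 µM is therefore given with and without replicate 1. The melanocyte lineage genes SOX10 and MITF averaged 417 and 31.9 CPM in DMSO, while the pigment gene TYR was at 0 in all libraries, and the summed level of 8 lineage markers was between 446 and 465 CPM in DMSO, between 447 and 459 at 5 µM and between 399 and 447 at 10 µM. Of the 8 markers of epithelial, immune and endothelial cells, 5 passed the filter, and their summed level was between 57.9 and 61.8 CPM in DMSO, between 86.3 and 87.4 at 5 µM and between 91.5 and 135 at 10 µM. Nearly all of that was CD68, a lysosomal protein, at 55.8, 83.9 and 105 CPM, whereas CD3E was at 0 and PTPRC averaged at most 0.211 CPM in a group. In bulk samples, fewer cells of a type and less RNA per cell cannot be told apart.

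ICAM1 fell to about the same level at both doses. With all libraries included, it was the only member with a lower level past the test at both. At 5 µM the inhibitor gene NFKBIA and the subunit gene NFKB2 were also lower than in DMSO, by a smaller amount, and no member was higher. At 10 µM the mean levels of NFKBIA and NFKB2 were near those of DMSO, and IER3, NFKBIE and BIRC3 were higher than in DMSO. For NFKB2 this depended on replicate 1 at 10 µM, which stood apart. Without it, NFKB2 and RELB passed as lower at both doses, at -0.16 and -0.37 on the log2 scale at 10 µM (edgeR adjusted p = 0.00298 and 0.000696). When a trend of each library with transcript length and GC content was removed instead, neither passed at 10 µM. NFKB2 and RELB were then at 0.10 and -0.10 (edgeR adjusted p = 0.19 and 0.314). Between the doses, NFKBIA, IER3 and NFKBIE were higher at 10 µM than at 5 µM.

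In counts, the quasi-likelihood test of edgeR, at an adjusted p under 0.05 (Benjamini-Hochberg, over the 16417 genes), passed 0 members as higher and 3 as lower at 5 µM, where 4.40% and 5.81% of all genes tested passed in these directions. An unadjusted p under 0.05 was reached by 0 members higher and 4 lower. At an adjusted p under 0.05, DESeq2 passed 0 and 4, and limma-voom 0 and 3. At 10 µM against DMSO 3 members passed as higher and 1 as lower, against 16.4% and 18.0% of all genes, so neither count is read as an excess of members. For 10 µM against 5 µM, 3 passed as higher and 0 as lower, against 2.87% and 5.53% of all genes, and 5 higher and 0 lower had an unadjusted p under 0.05. At an adjusted p under 0.05, DESeq2 passed 5 and 0 there, and limma-voom 2 and 0. The shares of all genes belong to the edgeR test with adjusted p. No share is given for the unadjusted, DESeq2 and limma-voom counts, so these are not read as an excess of members. When a change of at least 1.5-fold was asked for as well, 1 member passed at 5 µM (ICAM1), 2 at 10 µM (NFKBIE and ICAM1) and 2 between the doses (NFKBIE and IER3), where 4.87%, 19.1% and 4.01% of all genes did. The median log2 fold change of the members was -0.14 at 5 µM, -0.01 at 10 µM and 0.19 between the doses, beside 0.01, 0.01 and 0.0 over all genes. In 7 of the 10 members, all 3 libraries at 5 µM lay below all 3 DMSO libraries, against 25.0% of all genes. Both comparisons against DMSO share the same 3 DMSO libraries, so they are not independent of each other.

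**Figure D1:**
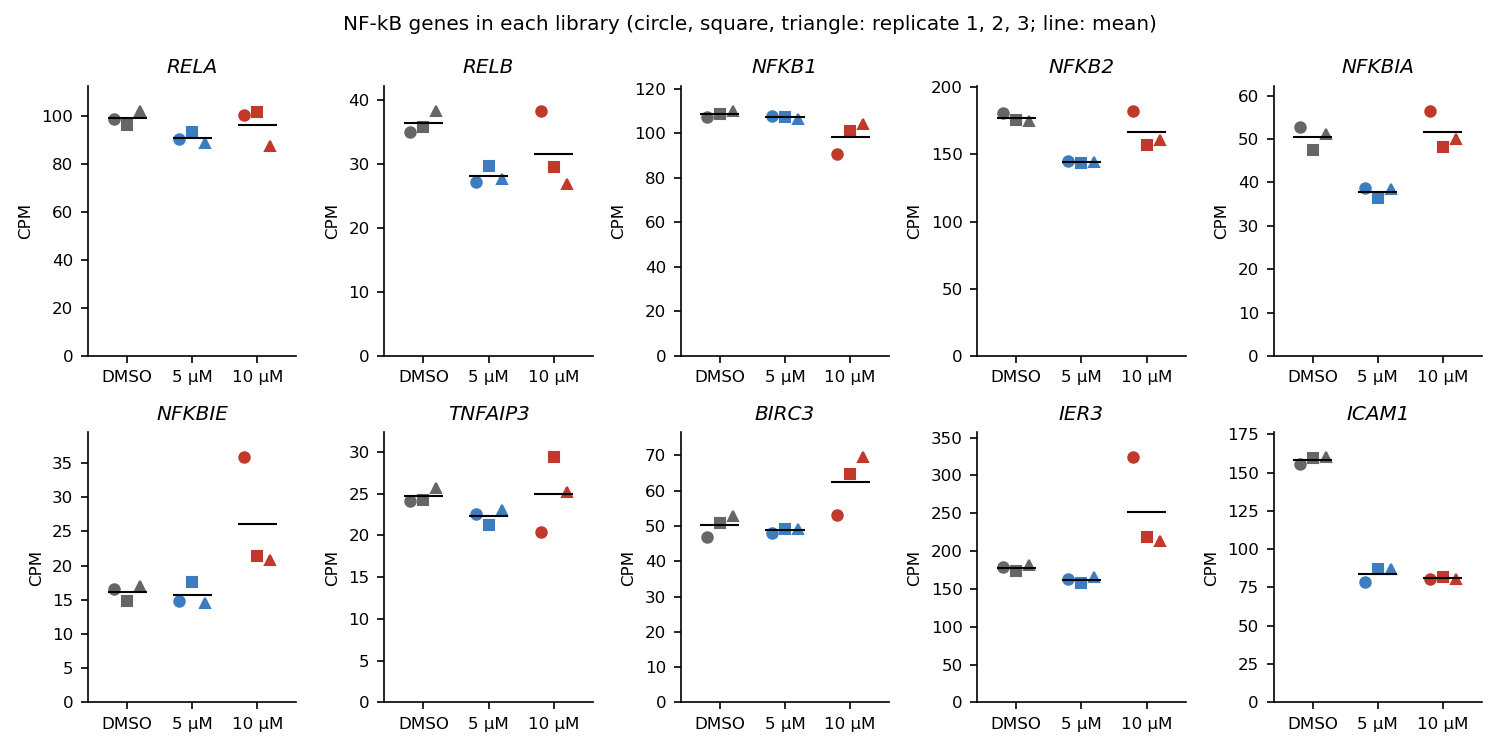
Level of each of the 10 genes in CPM (vertical axes, starting at 0) in the libraries of DMSO, 5 µM and 10 µM TP-472, with a symbol for each replicate and a line at the group mean. ICAM1 drops at both doses (158, 84.1 and 80.9 CPM on average), and replicate 1 at 10 µM lies well above the other 2 for NFKBIE and IER3.

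Among the subunits, RELA, the activating subunit p65 of the canonical dimer (chromosome 11, 65653596 to 65663094, minus strand, GRCh38), was measured at 98.6, 95.9 and 102.1 CPM in the DMSO libraries. It was at 90.2, 93.4 and 88.7 CPM at 5 µM, and at 100.2, 101.5 and 87.2 CPM at 10 µM. The libraries at 5 µM lay just below those of DMSO, and those at 10 µM overlapped them. Neither difference passed, with a log2 fold change of -0.12 at 5 µM (SE 0.08, 95% interval -0.30 to 0.05, edgeR adjusted p = 0.388) and of -0.04 at 10 µM (interval -0.21 to 0.14, adjusted p = 0.749), or -0.07 without replicate 1 (adjusted p = 0.364).

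NFKB1, which encodes the p105 precursor of p50 (chromosome 4, 102501329 to 102617302, plus strand), had the smallest coefficient of variation among the members in DMSO (1.44%), with 107.1, 108.5 and 110.2 CPM. Its levels were 107.7, 107.4 and 106.2 CPM at 5 µM. At 10 µM they were 90.5, 100.9 and 104.1 CPM, with replicate 1 the lowest. All 3 libraries at 10 µM thus lay below all of DMSO, but the log2 fold changes of -0.02 at 5 µM (interval -0.18 to 0.14, edgeR adjusted p = 0.913) and -0.14 at 10 µM (interval -0.30 to 0.02, adjusted p = 0.159) did not pass. Without replicate 1 the value at 10 µM was -0.09 (adjusted p = 0.11).

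NFKB2, which encodes the p100 precursor of the non-canonical route (chromosome 10, 102394110 to 102402529, plus strand), was at 180.7, 175.5 and 175.0 CPM in DMSO. The 5 µM libraries held 145.2, 143.3 and 144.7 CPM, and the 10 µM libraries 182.7, 157.1 and 160.8 CPM. The 5 µM libraries were tightly grouped below both other groups, and at 10 µM replicate 1 was above every DMSO library while the other 2 were below. At 5 µM NFKB2 fell by 0.29 on the log2 scale (SE 0.07, interval -0.46 to -0.13, edgeR adjusted p = 0.0322), to 0.816 of its DMSO level. The fall did not pass when any 1 of the 3 DMSO or the 3 5 µM libraries was left out, with values of -0.30 to -0.28 and an adjusted p of up to 0.141, which was also the case with a block for replicate number. At 10 µM the log2 fold change of NFKB2 was -0.09 (interval -0.25 to 0.08, adjusted p = 0.407), and without replicate 1 it was -0.16 and passed (adjusted p = 0.00298).

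RELB, the partner of p52 (chromosome 19, 45001430 to 45038198, plus strand), was at 35.0, 35.8 and 38.2 CPM in DMSO and at 27.1, 29.6 and 27.7 CPM at 5 µM. At 10 µM replicate 1 held 38.3 CPM, above every DMSO library, while replicates 2 and 3 held 29.5 and 26.9 CPM, close to the levels at the lower dose. RELB missed the threshold at 5 µM, at -0.37 (SE 0.12, interval -0.64 to -0.09, edgeR adjusted p = 0.0938), and at 10 µM, at -0.20 (interval -0.48 to 0.07, adjusted p = 0.239). Both differences passed in the fit without replicate 1 at 10 µM, at -0.37 for 5 µM (adjusted p = 0.000448) and -0.37 for 10 µM (adjusted p = 0.000696). The difference of RELB between the doses was 0.17 with that library and 0.00 without it.

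Among the inhibitors and feedback genes, NFKBIA, whose product IkBα captures RELA dimers (chromosome 14, 35401511 to 35404749, minus strand), was at 52.7, 47.5 and 51.2 CPM in DMSO. The libraries at 5 µM held 38.6, 36.4 and 38.5 CPM, and those at 10 µM 56.6, 48.1 and 50.0 CPM. The levels at 5 µM lay below every other library, and those of DMSO and 10 µM overlapped. NFKBIA fell by 0.42 on the log2 scale at 5 µM (SE 0.08, interval -0.60 to -0.23, edgeR adjusted p = 0.0132), to 0.75 of its DMSO level. At 10 µM the difference from DMSO was 0.03 (interval -0.16 to 0.22, adjusted p = 0.82), and 10 µM exceeded 5 µM by 0.45 (interval 0.26 to 0.63, adjusted p = 0.012). Without replicate 1 at 10 µM the difference from DMSO at that dose was -0.04 (adjusted p = 0.594), the difference between the doses was 0.37 (adjusted p = 0.000417) and the fall at 5 µM was -0.42 (adjusted p = 3.43e-05). The fall at 5 µM lost its call without DMSO replicate 1 or 3 or without 5 µM replicate 2 or 3 (-0.46 to -0.39, adjusted p up to 0.0792), and the difference between doses lost it without any 1 of the 5 µM libraries (adjusted p up to 0.0669).

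NFKBIE, which encodes IkBε (chromosome 6, 44258166 to 44265788, minus strand), was at 16.6, 14.9 and 17.0 CPM in DMSO and at 14.8, 17.6 and 14.6 CPM at 5 µM. At 10 µM it was at 35.9, 21.4 and 20.8 CPM. Every library at 10 µM was above every library of the other groups, and replicate 1 was far above its group. The log2 fold change of NFKBIE was -0.04 at 5 µM (interval -0.48 to 0.39, edgeR adjusted p = 0.931). At 10 µM it rose by 0.69 (SE 0.20, interval 0.25 to 1.12, adjusted p = 0.0213), or 1.61-fold, and 10 µM exceeded 5 µM by 0.73 (interval 0.30 to 1.17, adjusted p = 0.0476). Without replicate 1 these values were 0.39 (adjusted p = 0.00435) and 0.43 (adjusted p = 0.00503), so the rise was smaller and still passed. The call at 10 µM was lost without any 1 of the DMSO libraries (adjusted p up to 0.0829), and the call between the doses without any 1 of the DMSO or 5 µM libraries (adjusted p up to 0.165), with limma-voom (adjusted p = 0.0605) and with a block for replicate number (adjusted p = 0.0731).

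TNFAIP3, which encodes A20 (chromosome 6, 137867188 to 137883312, plus strand), was at 24.2, 24.3 and 25.7 CPM in DMSO. It was at 22.6, 21.2 and 23.1 CPM at 5 µM, below each DMSO library. At 10 µM the libraries spread from 20.4 CPM in replicate 1 to 29.4 and 25.2 CPM in replicates 2 and 3, and overlapped both other groups. The log2 fold change of TNFAIP3 was -0.15 at 5 µM (interval -0.42 to 0.13, edgeR adjusted p = 0.536) and 0.02 at 10 µM (interval -0.26 to 0.29, adjusted p = 0.934), and neither passed. The difference between the doses, at 0.16, did not pass either (adjusted p = 0.443), and without replicate 1 it was 0.29 and did (adjusted p = 0.0178). The value of TNFAIP3 at 10 µM against DMSO was then 0.14 (adjusted p = 0.174).

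Among the target genes, ICAM1, the adhesion molecule that binds leukocyte integrins (chromosome 19, 10270835 to 10286615, plus strand), was at 155.3, 159.2 and 160.1 CPM in DMSO. TP-472 libraries held 78.3, 87.2 and 86.7 CPM at 5 µM and 80.5, 82.0 and 80.3 CPM at 10 µM. All 6 libraries with TP-472 were far below all 3 of DMSO, and the doses overlapped. ICAM1 fell by 0.91 on the log2 scale at 5 µM (SE 0.07, interval -1.07 to -0.76, edgeR adjusted p = 5.32e-05) and by 0.97 at 10 µM (SE 0.07, interval -1.12 to -0.81, adjusted p = 6.58e-06), to 0.532 and 0.512 of its DMSO level. Between the doses the difference was -0.05 (interval -0.21 to 0.10, adjusted p = 0.663). Replicate 1 at 10 µM deviated by -0.01 from the other 2 libraries for this gene, and the value at 10 µM without it was -0.97 (adjusted p = 4.7e-10). Of the exon length of ICAM1, 23.6% overlaps genes on the opposite strand that the count table does not list, and it is not stated whether reads were counted by strand.

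IER3, an early response gene with a role in cell survival (chromosome 6, 30743199 to 30744554, minus strand), was at 178.7, 174.1 and 182.2 CPM in DMSO. It was at 162.8, 157.2 and 166.0 CPM at 5 µM and at 324.3, 219.0 and 213.6 CPM at 10 µM. All libraries at 5 µM lay below those of DMSO and all libraries at 10 µM above them, with replicate 1 at 10 µM the highest. The value at 5 µM was -0.14 (interval -0.45 to 0.17, edgeR adjusted p = 0.63). At 10 µM IER3 rose by 0.50 (SE 0.14, interval 0.19 to 0.81, adjusted p = 0.0203), or 1.41-fold, and 10 µM exceeded 5 µM by 0.64 (interval 0.33 to 0.95, adjusted p = 0.023). Without replicate 1 the values were 0.28 against DMSO (adjusted p = 3.14e-05) and 0.42 between the doses (adjusted p = 1.93e-06), and the difference at 5 µM then passed, at -0.14 (adjusted p = 0.0072). The rise at 10 µM lost its call without any 1 of the DMSO libraries (adjusted p up to 0.0736), and the difference between the doses without any 1 of the 5 µM libraries (adjusted p up to 0.0959). The antisense gene IER3-AS1 overlaps 26.5% of the exon length of IER3, and is not listed in the count table.

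BIRC3, which encodes the ubiquitin ligase cIAP2 (chromosome 11, 102317450 to 102339403, plus strand), was at 47.0, 50.8 and 52.9 CPM in DMSO and at 47.9, 49.1 and 49.2 CPM at 5 µM. The 10 µM libraries held 53.1, 64.6 and 69.5 CPM. The lowest of them, replicate 1, was just above the highest DMSO library, and the other 2 were clear of it. The log2 fold change of BIRC3 was -0.04 at 5 µM (interval -0.27 to 0.18, edgeR adjusted p = 0.861). At 10 µM it rose by 0.31 (SE 0.10, interval 0.09 to 0.54, adjusted p = 0.0374), or 1.24-fold, and without replicate 1 by 0.42 (adjusted p = 3.51e-05). Of the 9 libraries, leaving out any 1 other than 10 µM replicate 1 left the rise short of the threshold (0.23 to 0.35, adjusted p up to 0.147). The difference between the doses was 0.36 (adjusted p = 0.0605), and 0.46 without replicate 1 (adjusted p = 5e-05).

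**Figure D2:**
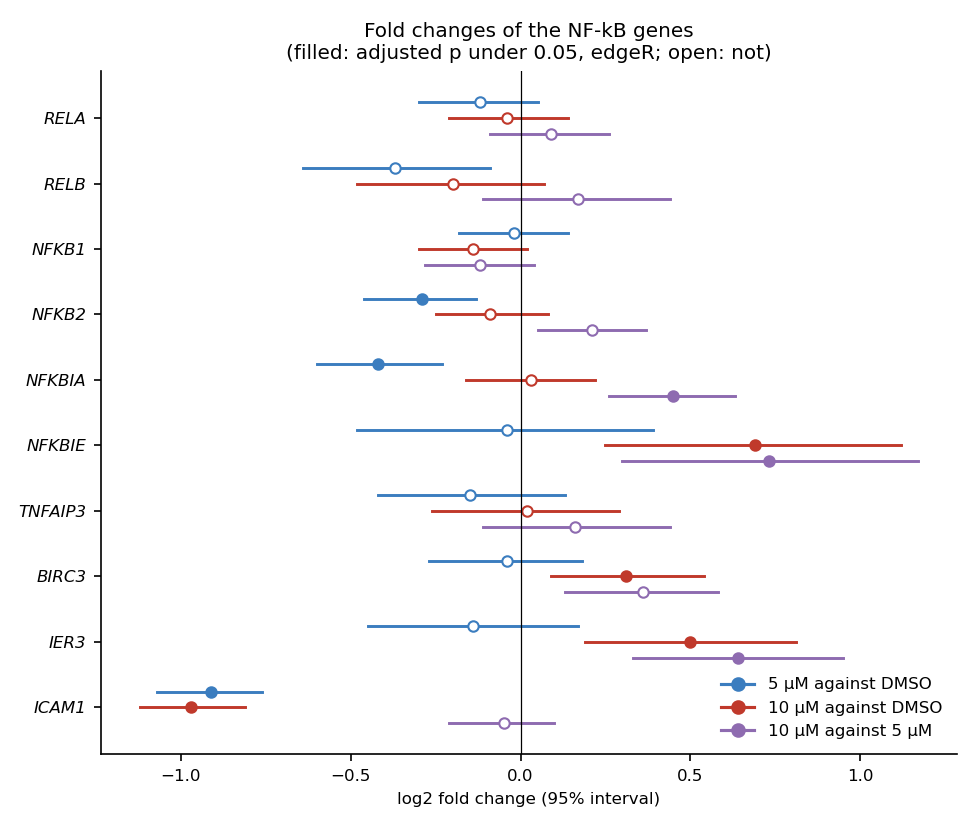
Log2 fold change of each gene (horizontal axis) with its 95% interval for each dose against DMSO and for the higher dose against the lower, filled where the edgeR adjusted p is under 0.05. ICAM1 lies near -0.91 and -0.97 against DMSO and near 0 between the doses, while NFKBIA is at -0.42 at 5 µM and at 0.03 at 10 µM.

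**Figure D3:**
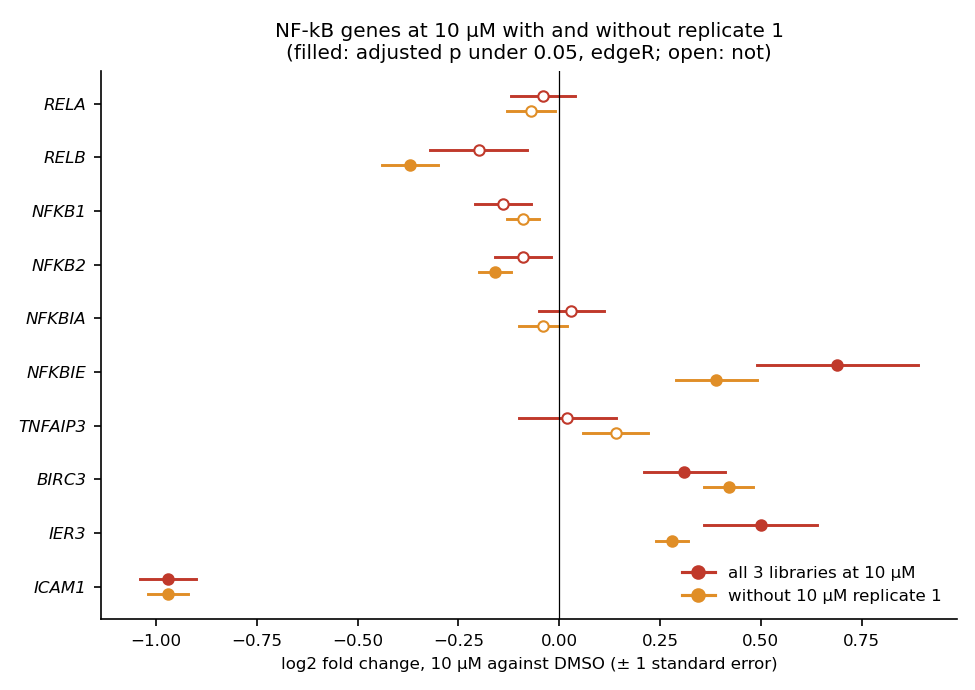
Log2 fold change of each gene at 10 µM against DMSO (horizontal axis) with 1 standard error, from all 3 libraries at 10 µM and without replicate 1. ICAM1 stays at -0.97, NFKBIE moves from 0.69 to 0.39, IER3 from 0.50 to 0.28, and RELB from -0.20 to -0.37.

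When a trend of each library with transcript length and GC content was removed, a choice made after the data had been seen, ICAM1 was at -0.88 at both doses, NFKBIA at -0.46 and NFKB2 at -0.22 at 5 µM, and IER3, NFKBIE and BIRC3 at 0.36, 0.75 and 0.46 at 10 µM. Each of these passed (edgeR, adjusted p of 0.0196 or less), as did RELB at 5 µM (-0.29, adjusted p = 0.0213). At 10 µM against DMSO, NFKB2 was at 0.10, RELB at -0.10 and NFKBIA at -0.14, and none of these passed (adjusted p = 0.19, 0.314 and 0.105). Between the doses, NFKB2 at 0.31 and BIRC3 at 0.47 passed (adjusted p = 0.00441 and 0.00125), which they did not with the trend left in. For 93.3% of the genes tested, both properties were known.

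Levels of different genes were compared per kb of exon, with the exons of all coding transcripts of a gene merged. Another choice of length can change the order of genes that lie close, such as ICAM1 and NFKB2 in DMSO. In DMSO, IER3 had the highest level at 132 CPM per kb (SD 2.98, n = 3). It was followed by ICAM1 and NFKB2 at 48.6 and 46.7, whose libraries overlapped, and by NFKBIA and RELA at 26.6 and 24.7, which also overlapped. NFKB1 at 19.0, RELB at 15.8, BIRC3 at 7.14, NFKBIE at 6.26 and TNFAIP3 at 5.05 CPM per kb came next, each clear of its neighbours. On this measure, the order of ICAM1 was the main difference under TP-472. It came after NFKB2 at 5 µM, at 25.9 against 38.1 CPM per kb, and after NFKB2 and NFKBIA at 10 µM, at 24.9 against 44.1 and 27.1. IER3 was the highest per kb in every group, at 119 at 5 µM and 186 at 10 µM, and TNFAIP3 the lowest, at 4.56 and 5.10. The spread between libraries of a group was wider at 10 µM, where the coefficient of variation of the members ran from 1.18% for ICAM1 to 32.7% for NFKBIE, than in DMSO, where it ran from 1.44% for NFKB1 to 7.03% for NFKBIE. The spread at 10 µM includes replicate 1, which stood apart, with NFKBIE at 35.9 CPM beside 21.4 and 20.8 in replicates 2 and 3.

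The genes whose pattern over the 9 libraries was most like ICAM1, among 9813 genes that averaged 10 CPM or more, were SGCE, ACO1 and LIF, with a Pearson r of log2 CPM of 0.996, 0.989 and 0.989. LIF, a cytokine of the interleukin-6 family, was at 111 ± 2.19 CPM in DMSO, 78.9 ± 1.45 at 5 µM and 80.8 ± 1.48 at 10 µM (SD, n = 3). For NFKBIE the most alike were SLC25A33, CD320 and HES1, with an r of 0.982, 0.981 and 0.98. These 3 shared with NFKBIE a wide spread at 10 µM, such as 84.4 ± 18.3 CPM for CD320. The points are libraries in 3 groups and share depth and the library that stood apart, so the values are descriptions.

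The other genes of the pathway were taken from 5 lists of 86 genes, of which 81 passed the filter on low counts. TLR2, LTA, TNFSF11, VCAM1 and TNIP3 did not. By the edgeR test, 1 of the 81 was higher and 20 were lower at 5 µM, and 9 were higher and 25 lower at 10 µM, with a median log2 fold change of -0.28 and -0.22 beside 0.01 over all genes at either dose. Of all genes tested, 4.40% were higher and 5.81% lower at 5 µM, and 16.4% were higher and 18.0% lower at 10 µM, and the counts of each list below stand against these shares. Without replicate 1 at 10 µM, 12 pathway genes were higher and 36 lower at 5 µM, and 16 higher and 34 lower at 10 µM. Fits of only the groups compared passed 12 as higher and 40 as lower at 5 µM, and removing the trend with length and GC content passed 8 and 26. The shares of all genes above belong to the main fit of all 9 libraries. No share is given for these other fits, so their counts are not read as an excess of pathway genes. Between the doses 5 of the 81 were higher and 4 lower at 10 µM in the main fit, with a median of 0.01, where 2.87% and 5.53% of all genes passed. Named below are the 4 genes of each list with the smallest p at 10 µM among those passing, and every remaining gene of the IkB family and subunit list.

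Among the remaining subunit and IkB-family genes, NFKBIB, which encodes IkBβ, was at 21.1 ± 0.217 CPM in DMSO, 25.8 ± 0.677 at 5 µM and 40.6 ± 8.88 at 10 µM. It rose by 0.95 at 10 µM (SE 0.13, edgeR adjusted p = 0.000516) and was at 0.29 at 5 µM, which did not pass (adjusted p = 0.211). BCL3, a nuclear IkB protein that binds p50 and p52, fell by 0.53 at 5 µM (adjusted p = 0.0447) and by 0.78 at 10 µM (adjusted p = 0.00257). REL, NFKBID and NFKBIZ did not pass at either dose, with values of -0.15, 0.07 and -0.32 at 5 µM and -0.31, -0.22 and -0.28 at 10 µM. Without replicate 1, NFKBIB was at 0.75 and BCL3 at -0.95 at 10 µM, and both passed, while REL was at 0.13, NFKBID at -0.30 and NFKBIZ at -0.18, and none of these passed.

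Of the 12 kinase genes, 0 were higher and 1 was lower at 5 µM, and 2 were higher and 1 lower at 10 µM, where 16.4% and 18.0% of all genes were. IKBKE, a kinase related to the IkB kinases, fell by 0.44 and 0.67 (edgeR adjusted p = 0.0146 and 0.000453). Its relative TBK1 and IKBKG, the regulatory subunit of the IkB kinase complex, rose at 10 µM by 0.39 and 0.38 (adjusted p = 0.00555 and 0.0195). Among 20 adaptor and ubiquitin enzyme genes, 1 was higher and 4 were lower at 5 µM (4.40% and 5.81% of all genes), and 2 were higher and 5 lower at 10 µM (16.4% and 18.0%). TRAF5, an adaptor of tumor necrosis factor receptors, fell by 0.40 at 5 µM and by 0.91 at 10 µM (adjusted p = 0.0482 and 0.000244). TNIP1, a partner of A20, fell by 0.43 and 0.47 (adjusted p = 0.00306 and 0.000489), and IRAK2, of the interleukin-1 route, by 0.63 and 0.64 (adjusted p = 0.0113 and 0.00331). TRAF6 rose by 0.52 at 10 µM (adjusted p = 0.0125). Without replicate 1 the values at 10 µM were -0.63 for IKBKE, 0.47 for TBK1, 0.26 for IKBKG, -0.82 for TRAF5, -0.50 for TNIP1, -0.69 for IRAK2 and 0.61 for TRAF6, and each passed.

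Receptors and ligands, 16 of 19 of which were tested, had 0 higher and 4 lower at 5 µM (4.40% and 5.81% of all genes) and 1 higher and 8 lower at 10 µM (16.4% and 18.0%), with medians of -0.43 and -0.58. TNFRSF1A, the main receptor of tumor necrosis factor, was at 189 ± 0.761 CPM in DMSO, 142 ± 6.9 at 5 µM and 116 ± 16.0 at 10 µM, and fell by 0.41 and 0.70 (edgeR adjusted p = 0.025 and 0.000436). TNFRSF11A, the receptor RANK, fell by 0.92 and 1.34 (adjusted p = 0.011 and 0.000439), and the cytokine gene IL1A by 0.39 and 0.51 (adjusted p = 0.00987 and 0.000732). TNFRSF12A, the receptor of the cytokine TWEAK, was the list's only gene that rose, by 1.13 at 10 µM (adjusted p = 0.00114) and by 0.83 without replicate 1. TNFRSF1A, TNFRSF11A and IL1A were then at -0.82, -1.25 and -0.48 at 10 µM, and each passed.

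Of the other target genes, 28 of 30 were tested, 0 were higher and 10 lower at 5 µM (4.40% and 5.81% of all genes), and 3 were higher and 10 lower at 10 µM (16.4% and 18.0%), with medians of -0.42 and -0.31. MMP9, a matrix-degrading metallopeptidase, was at 43.3 ± 0.371 CPM in DMSO, 10.1 ± 0.682 at 5 µM and 7.07 ± 1.69 at 10 µM, and fell at both doses, by 2.62 on the log2 scale at 10 µM (edgeR adjusted p = 4.68e-05 at 5 µM and 2.31e-06 at 10 µM). The chemokine gene CXCL8 fell from 378 ± 2.42 to 212 ± 5.92 and 178 ± 4.44 CPM, and TNFAIP2 from 136 ± 2.16 to 62.1 ± 3.8 and 38.3 ± 1.21 CPM. Between the doses, TNFAIP2 fell by 0.70 (adjusted p = 0.000467), whereas ICAM1 differed by -0.05. GADD45B, a stress-induced gene, was at 9.36 ± 0.352, 12.1 ± 1.26 and 31.1 ± 4.49 CPM and rose by 1.73 at 10 µM (adjusted p = 7.62e-06). Without replicate 1 the values at 10 µM were -2.78 for MMP9, -1.08 for CXCL8, -1.83 for TNFAIP2 and 1.61 for GADD45B, and each passed. The targets included genes that fell at both doses, as ICAM1 did, and genes that rose at 10 µM, as IER3 and BIRC3 did.

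**Figure D4:**
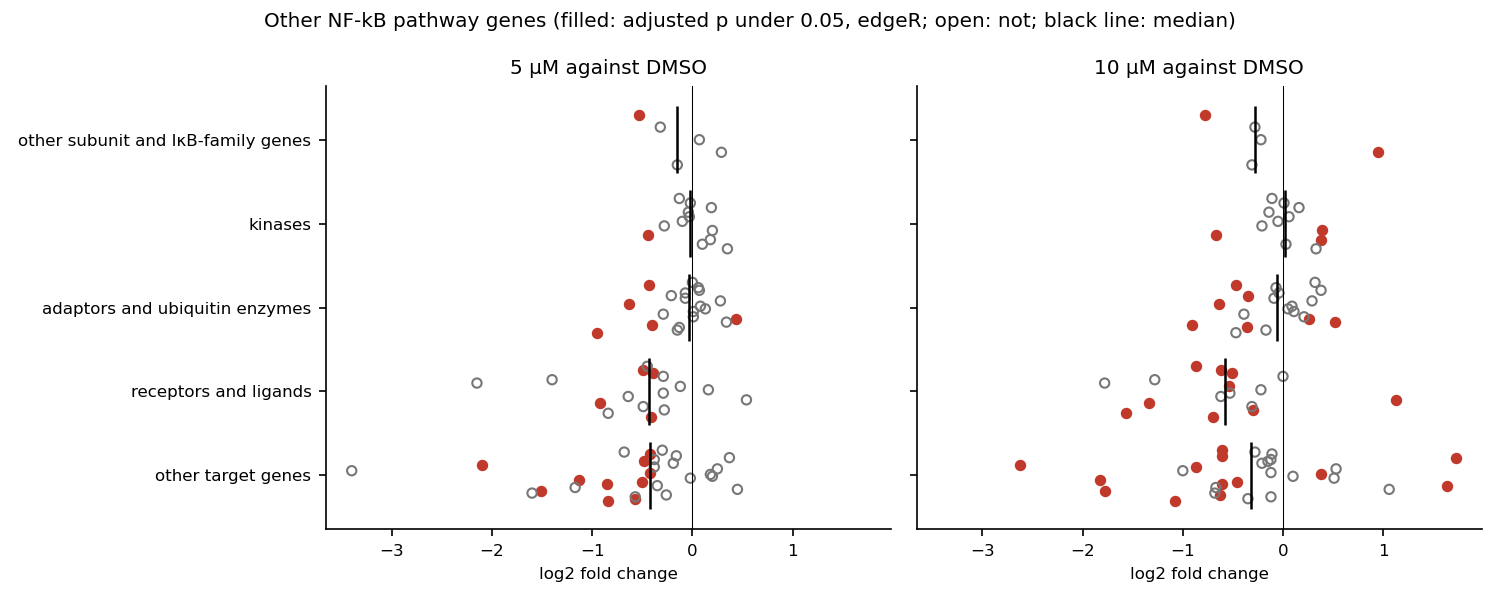
Log2 fold change (horizontal axis) of the 81 other pathway genes in 5 lists, with 1 point per gene and a panel for each dose against DMSO, filled where the edgeR adjusted p is under 0.05, and a line at each list's median. The medians of receptors and ligands (-0.43 and -0.58) and of other targets (-0.42 and -0.31) lie below 0 against DMSO, and those of kinases (-0.02 and 0.02) near 0.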

How the data were processed

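RNA-seq libraries from A375 cells with DMSO, 5 µM or 10 µM TP-472 (24 h, 3 per group) were strand-specific. The protocol describes oligo-dT purification and the design text ribosomal RNA depletion, and which was used is not settled here. For each gene symbol, the table deposited by the authors gives expected counts, without scaling to library size. The submitters' processing notes name RSEM 1.2.15, Bowtie2 2.1.0 and hg38, without roles. The annotation is not stated. Between 10.6% and 13.8% of values per library were not whole, and all were rounded.

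The test was run in edgeR 4.0.16 and R 4.3.3 (TMM factors, filterByExpr at defaults, quasi-likelihood F test) in 1 fit of all 3 groups, with Benjamini-Hochberg adjustment over 16417 genes and a threshold of 0.05. Standard errors were taken as |log2 fold change| over the root of F. On simulated data with 200 genes changed 3-fold among 16091 genes, 80.5% were recovered at 5 µM and 78% at 10 µM, with 12 and 5 false calls. The changes of the members were smaller than 3-fold, so these shares do not give the power for them. The simulation did not include the deviation of 10 µM replicate 1 with transcript length. Levels are CPM of TMM-scaled libraries. Coordinates, exon length and overlaps are from GENCODE release 29 (GRCh38) and promoters from RefSeq. DESeq2 1.42.0, limma 3.58.1 (voom), other factors and filters, a replicate block, fits of only the groups compared and leaving out each library served as alternatives. The members and lists were chosen with earlier results of these data known. The named genes are the 10 members, the 4 genes with the smallest p at 10 µM among those passing in each of 5 lists, all genes of the subunit and IkB-family list, and the 3 genes most like each of the 2 members with the largest passing change at 10 µM. No library was left out of the values in the text unless stated.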

Additional observations from a re-analysis of the deposited data

Results flagged for a closer look

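In 3 of the 10 genes the effect of TP-472 differed between the doses by edgeR's test of the difference itself, with Benjamini-Hochberg adjustment over all genes tested. Of all genes tested, 2.87% were higher and 5.53% lower at 10 µM than at 5 µM. NFKBIA was higher at 10 µM than at 5 µM by 0.45 on the log2 scale (adjusted p = 0.012), with all 3 libraries at 10 µM above all 3 at 5 µM. IER3 differed by 0.64 (adjusted p = 0.023), and its libraries lay below those of DMSO at 5 µM and above them at 10 µM. NFKBIE differed by 0.73 (adjusted p = 0.0476), with the libraries of 5 µM overlapping those of DMSO. Without replicate 1 at 10 µM the differences were 0.37, 0.42 and 0.43, and all passed. In a fit of only the groups compared, the differences of all 3 genes missed the threshold. That of NFKBIE missed it in 9 of 19 alternative settings, among them limma-voom (adjusted p = 0.0605) and a replicate block (adjusted p = 0.0731), and those of NFKBIA and IER3 in 4 each, the others being without any 1 of the 5 µM libraries.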

How the results depend on the processing

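The falls of ICAM1 at both doses against DMSO passed in each of the 19 alternative settings, and were the only 2 of the 30 results (10 genes in 3 comparisons) to do so. Another 12 results passed in no setting, and no call changed sign. Fitting only the groups compared gave 6 members passing at 5 µM against DMSO (3 in the fit of all groups), 1 at 10 µM (4) and 0 between the doses (3), where 5 had an unadjusted p under 0.05, and where DESeq2 and voom on all groups passed 5 and 2. The 6 at 5 µM were ICAM1, NFKBIA, NFKB2, RELB, RELA and IER3, all lower than in DMSO. The same fits gave 52 other pathway genes at 5 µM (21) and 3 between the doses (9). A change of at least 1.5-fold as a second condition left 1, 2 and 2 members, and 8, 22 (of 34) and 4 other pathway genes. DESeq2 passed 14 other pathway genes between the doses. Removing the trend with length and GC content passed 34 other pathway genes at 5 µM and 19 between the doses, with 5 members between the doses. The share of all genes passing is not given for these alternative fits or for those below. Their counts describe how the calls shift and are not read as an excess of members or pathway genes.

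Leaving out 1 library gave 1 to 5 members at 5 µM, 1 to 6 at 10 µM and 0 to 6 between the doses, and 10 to 48, 24 to 50 and 3 to 32 other pathway genes. The highest member counts, 5, 6 and 6, were without 10 µM replicate 1. The lowest were 1 at 5 µM without DMSO replicate 1 or 3 or 5 µM replicate 2 or 3, 1 at 10 µM without any DMSO library and 0 between the doses without any 5 µM library, where 4 or 5 had an unadjusted p under 0.05.

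The labels give the groups the same replicate numbers. Same-numbered libraries deviated together with r of -0.0493 to 0.0322 over 9 pairs, against -0.0327 to 0.0451 for 18 other pairs. No link by number was seen in these deviations. With 3 libraries per group they cannot tell whether same-numbered libraries shared a culture or batch, which is not stated. With a replicate block 2, 4 and 2 members and 17, 35 and 4 other pathway genes passed in the 3 comparisons. The lowest count of a member in a library was 674.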

Other observations

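Ratios of CPM within a library, which do not depend on the scaling of libraries, gave these values (SD, n = 3). RELB to RELA was 0.368 ± 0.0112 in DMSO and 0.31 ± 0.00836 at 5 µM, with no overlap, and 0.382, 0.291 and 0.308 in the libraries at 10 µM. NFKB2 to NFKB1 was 1.63 ± 0.051 in DMSO, 1.35 ± 0.0143 at 5 µM and 2.02, 1.56 and 1.54 at 10 µM, where replicate 1 was the highest. NFKBIE to NFKBIA was 0.32 ± 0.0101 in DMSO, 0.415 ± 0.0601 at 5 µM and 0.499 ± 0.118 at 10 µM, so that both doses lay above DMSO in every library. These ratios were not tested, and a ratio does not show which of the 2 genes moved.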
